A study of Rattus norvegicus with 6 samples.

Results

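MiR-221 and miR-222 are a pair of microRNAs (miRNAs) made from neighbouring hairpins on the X chromosome, and both strands of each hairpin can be kept as mature miRNAs, named 5p and 3p after the arm they come from. The members described here are these 4 mature miRNAs, chosen by name (rno-miR-221-5p, rno-miR-221-3p, rno-miR-222-5p and rno-miR-222-3p, written without the prefix for rat below) from the 649 mature miRNAs in the count files. All 4 were listed in every file. Cortical neurons of embryonic day 18 Sprague-Dawley rats were kept in culture for 7 days according to the labels, whereas a figure legend of the study gives a day less. For 20 min they were then given either BDNF (100 ng/ml) or its BSA vehicle. There were 3 libraries of each condition, with replicate numbers 1 to 3. The labels name no transgene or deletion, and one small RNA library was sequenced from each sample.

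A miRNA guides Argonaute proteins to mRNAs that pair with its seed, bases 2 to 8 from the 5′ end, and represses them. MiR-221 and miR-222 are best known for repressing the cell cycle inhibitor p27 (Cdkn1b) and the receptor Kit, and they are abundant in vascular and proliferating cells. Their joint transcript rises after growth factor signalling through the kinase ERK, which has been studied in nerve growth factor-treated PC12 cells, where they repress the pro-apoptotic protein Bim. BDNF acts on neurons through its receptor TrkB, which also signals through ERK, so the comparison asks whether a short BDNF pulse changed the mature forms of this pair. Mature miRNAs were read at 20 min only, and the libraries measured neither the joint transcript nor ERK activity. Whether ERK or the transcript responded was therefore not tested.

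The mature sequences are shown because the seed decides which mRNAs each miRNA can recognize. They are RefSeq sequences on the GRCr8 rat assembly, 5′ to 3′, with the seed in capitals. All lie on the plus strand of chromosome X, and the 4 members were among the 583 names of the files that matched a mature sequence of that table.
miR-222-5p (chrX:6022642-6022662): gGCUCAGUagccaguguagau
miR-222-3p (chrX:6022682-6022702): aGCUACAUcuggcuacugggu
miR-221-5p (chrX:6023206-6023228): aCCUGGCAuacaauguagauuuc
miR-221-3p (chrX:6023246-6023268): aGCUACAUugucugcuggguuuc
The 3p miRNAs had the same first 8 bases and therefore the same seed, GCUACAU, and differed by 6 edits (changed, added or missing bases) over their whole length. No other miRNA of the table had this seed. The 5p miRNAs had different seeds, CCUGGCA and GCUCAGU, which they shared with no other miRNA of the table, and they differed from each other by 11 edits. The read assignment allowed a single mismatch as well as trimmed or extended ends. In the table, the closest other mature sequence to each member, any other member included, was at least 6 edits away over the whole length. Edits at the ends count in this distance although the assignment tolerated some of them. Names of the files without a sequence in the table were not compared.

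The hairpins show how the arms are placed, with the mature miRNAs in capitals.
Mir222 (chrX:6022621-6022723, plus strand): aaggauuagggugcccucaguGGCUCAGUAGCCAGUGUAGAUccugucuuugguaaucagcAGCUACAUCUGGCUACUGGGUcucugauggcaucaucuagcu
Mir221 (chrX:6023182-6023290, plus strand): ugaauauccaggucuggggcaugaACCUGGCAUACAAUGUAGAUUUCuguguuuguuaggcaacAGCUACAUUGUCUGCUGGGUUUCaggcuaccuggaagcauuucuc
Between the hairpins lay 458 bases, and 2 lncRNA genes of the RefSeq annotation, LOC120099382 and LOC120099384, spanned both. Between the mature arms lay 19 bases in Mir222 and 17 bases in Mir221, the stretch that Dicer removes with the loop.

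The total count per library ranged from 10374120 to 12533029, and levels are given in RPM, reads per 1000000 of this total. The minimum level for testing, 10 RPM, stood for 103.7 to 125.3 reads. The 8 neuronal marker miRNAs listed for the identity check all passed this minimum. Their summed level was between 348803 and 407259 RPM in control and between 387184 and 425232 RPM in BDNF libraries. Most of this sum was miR-9a-5p, with means of 286144 RPM in control and 304938 RPM in BDNF libraries. The lowest of the list, miR-153-3p, had means of 27.3 and 26.9 RPM. Of 6 glial markers 3 passed, with sums of 5621 to 7335 RPM in control and 5655 to 7533 RPM in BDNF libraries, nearly all of it miR-21-5p, which neurons and many other cells also express. Of 11 vessel and blood markers 10 were listed and 4 passed, with sums of 534 to 649 RPM in control and 557 to 644 RPM in BDNF libraries. Most of this was miR-486, with means of 424 RPM in control and 435 RPM in BDNF libraries. None of the listed markers was at 0 in all libraries. In such bulk libraries, fewer cells of a type and less RNA per cell cannot be told apart. Per the methods, the cultures had received fluorodeoxyuridine, which stops dividing non-neuronal cells. In edgeR without the replicate block described below, no tested marker had an unadjusted P-value below 0.05. With it, miR-138-5p of the neuronal list (log2 fold change -0.28, edgeR P-value 0.00456 unadjusted and 0.139 adjusted) and miR-126a-5p of the vessel list (-0.26, edgeR P-value 0.0249 unadjusted and 0.178 adjusted) were lower in BDNF libraries at that threshold, as were 12.8% of all 336 miRNAs tested, and no tested marker was higher at it.

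The 4 arms together took 0.111, 0.0954 and 0.104% of the control libraries and 0.114, 0.102 and 0.109% of the BDNF libraries. In every library the order was miR-221-3p, miR-222-3p, miR-221-5p and miR-222-5p, and the ranges of neighbours in this order over the 6 libraries did not overlap. The members are between 21 and 23 bases long, and RPM was not corrected for length. Adapter ligation in small RNA libraries favours some ends over others, so that a difference in RPM between miRNAs can also reflect their sequence.

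**Figure D1:**
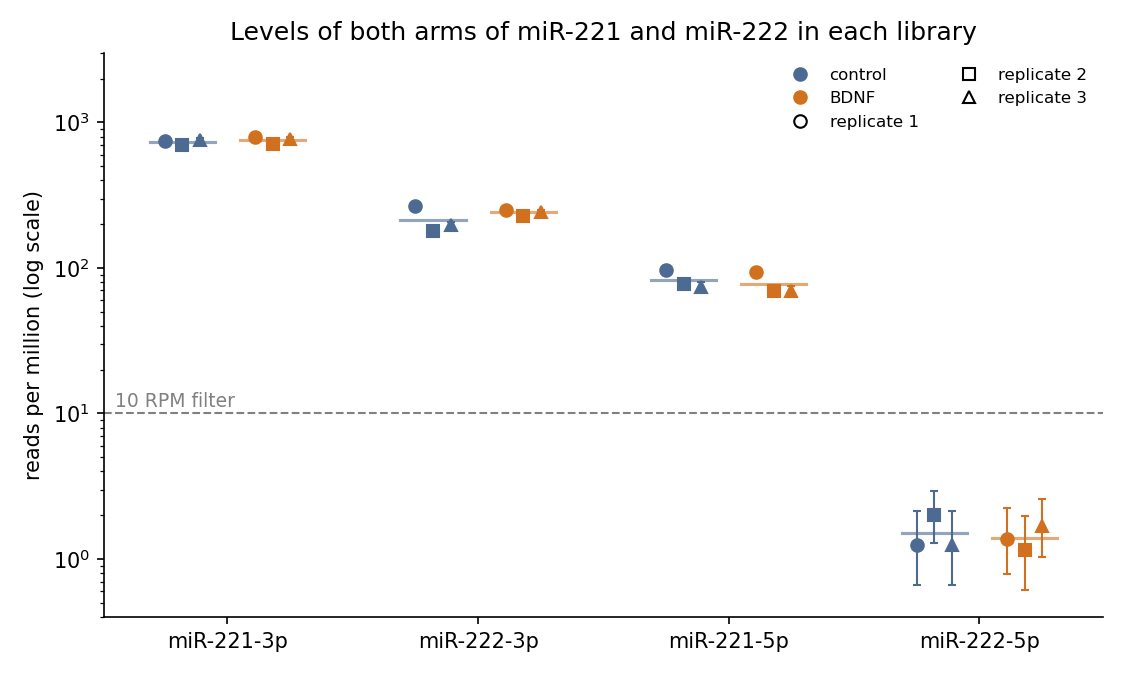
RPM on a log scale for the 4 mature miRNAs in each control and BDNF library; symbols mark the replicate number, bars the group means and whiskers the exact 95% counting intervals. MiR-221-3p lies between 696 and 795 RPM and miR-222-5p, under the 10 RPM line, between 1.15 and 1.99 RPM, with no miRNA separating control from BDNF libraries.

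MiR-221-3p, the seed-sharing miRNA with the higher level, had 747, 696 and 762 RPM in control replicates 1 to 3 and 795, 715 and 773 RPM in the BDNF replicates. The groups overlapped, and only the BDNF 1 and BDNF 3 libraries were above all 3 controls. By mean level it was number 89 of the 649 miRNAs in control and number 82 in BDNF libraries. Replicates varied by 4.70% (coefficient of variation) in control and by 5.40% in BDNF libraries, against medians of 15.1 and 14.7% over the 336 miRNAs that passed the minimum. Only 23 and 38 of these miRNAs, respectively, varied less. These coefficients depend on the scale. After the TMM normalization described below, the level was 729 ± 23.6 RPM in control and 769 ± 77.3 RPM in BDNF libraries (SD). Ranks by variation were not counted on that scale.

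MiR-222-3p, which carries the same seed, was read 2777, 2242 and 2060 times in control and 2934, 2585 and 2891 times in BDNF libraries. This corresponded to 266, 179 and 199 RPM in control replicates 1 to 3 and to 251, 229 and 243 RPM in the BDNF replicates. Control 1 was the highest of all 6 libraries, while controls 2 and 3 lay below every BDNF library. Accordingly, its coefficient of variation was 21.3% in control but 4.59% in BDNF libraries, and 239 and 18 of the 336 miRNAs varied less. Counting error alone gives about 2.06 and 1.89% at these read numbers, so that the spread among controls was larger than counting error. The narrow spread of the BDNF libraries is one of RPM. After normalization their level was 244 ± 24.3 RPM, against 213 ± 47.5 RPM in control (SD).

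MiR-221-5p, the less abundant strand of its hairpin, passed the minimum as well. It had 96.3, 77.2 and 74.1 RPM in control and 93.4, 69.7 and 69.9 RPM in BDNF libraries. Replicate 1 was the highest in both conditions, and the groups overlapped. MiR-222-5p was the only member under the minimum, with 13, 25 and 13 reads in control and 16, 13 and 20 reads in BDNF libraries. Its levels of 1.25, 1.99 and 1.25 RPM in control and 1.37, 1.15 and 1.68 RPM in BDNF libraries varied by 28.7 and 18.9%, near the 24.3 and 24.7% that counting error alone gives at this depth.

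For the comparison of conditions, counts were normalized by the TMM method, which corrects each library total for its composition, and tested with edgeR's quasi-likelihood test on all 336 miRNAs. The threshold of the study, an unadjusted P-value below 0.05, was passed by 2.98% of all miRNAs tested (10 of 336), 1.49% in each direction, and by none of the 3 members that passed the minimum. None of them had groups that did not overlap, which was seen for 7.14% of all miRNAs. After Benjamini-Hochberg adjustment 0 of 336 miRNAs passed in edgeR, and the same number passed in DESeq2 (12 unadjusted) and in limma-trend (6 unadjusted). MiR-221-3p had a log2 fold change (BDNF/control) of 0.08 (standard error 0.10, n = 3 per group), which edgeR gave a P-value of 0.476 unadjusted and 0.999 adjusted. The 95% confidence interval of the fold change ran from 0.891 to 1.25, so that larger changes of this miRNA lay outside it. This direction rested on the BDNF 1 library, without which the log2 fold change was -0.011. MiR-221-5p had a log2 fold change of -0.06 (standard error 0.21) and an edgeR P-value of 0.798 unadjusted and 0.999 adjusted, with an interval of the fold change from 0.675 to 1.37. Its sign turned when control 1, BDNF 2 or BDNF 3 was left out, with log2 fold changes of 0.10, 0.0066 and 0.070. MiR-222-5p was tested without the minimum, in a fit of all 649 miRNAs in which 2.31% had an unadjusted P-value below 0.05. Its log2 fold change of -0.09 (standard error 0.32) had an edgeR P-value of 0.780 unadjusted. The interval of the fold change ran from 0.563 to 1.56 and thus held changes in both directions. The log2 fold change turned to 0.23 without control 2 and to 0.035 without BDNF 2.

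MiR-222-3p had the largest difference of the 4 members. Its normalized level was 213 ± 48 RPM in control (SD, n = 3) and 244 ± 24 RPM in BDNF libraries (SD, n = 3). The log2 fold change of 0.19 (standard error 0.18) had an edgeR P-value of 0.307 unadjusted and 0.999 adjusted, with an interval of the fold change from 0.856 to 1.53. An exact two-sided permutation test of the normalized levels gave P = 0.3, where 3 against 3 libraries cannot give less than 0.1. The value depended on single libraries. Without control 1 it became 0.42 on the log2 scale (standard error 0.12), at an edgeR P-value of 0.0136 unadjusted and 0.418 adjusted. Without control 2, control 3 or BDNF 1 it became 0.11 in each case, with edgeR P-values of 0.607, 0.586 and 0.609 unadjusted.

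Libraries that shared a replicate number resembled each other in how they departed from their group means, so the comparison was also made with the replicate number as a block. MiR-222-3p then passed the unadjusted threshold, with a log2 fold change of 0.21 (standard error 0.08) and an edgeR P-value of 0.0335 unadjusted and 0.211 adjusted. The block raised the share of all miRNAs under this threshold to 20.5% (69 of 336), 26 of them higher and 43 lower in BDNF libraries. One of the 3 members tested thus passed, against this background for all miRNAs, and none of the 336 passed after adjustment. MiR-222-3p was number 52 of the 336 by P-value in this fit and number 81 in the fit without the block. For miR-221-3p the block gave a log2 fold change of 0.07 (standard error 0.07) and an edgeR P-value of 0.314, and for miR-221-5p one of -0.07 (standard error 0.08) and an edgeR P-value of 0.426.

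**Figure D2:**
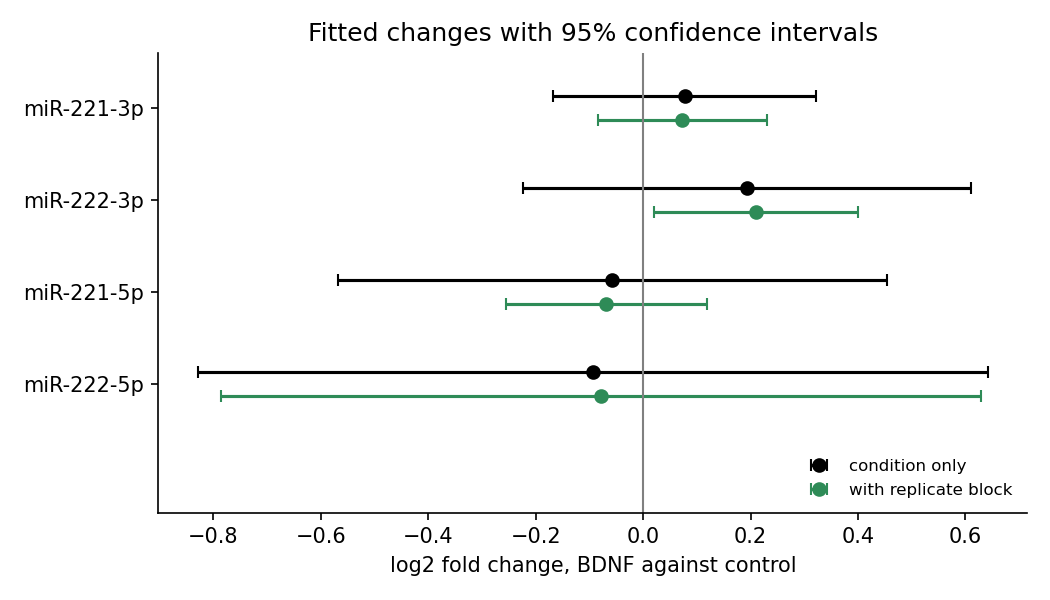
Log2 fold change of each mature miRNA in BDNF against control libraries from edgeR, with 95% confidence intervals, for the fit with the condition only (black) and with the replicate number as a block (green). The interval excludes 0 only for miR-222-3p with the block, from 0.02 to 0.40; miR-222-5p comes from fits without the minimum level.

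Ratios of RPM between libraries with the same replicate number give the values behind this fit. For miR-222-3p, BDNF over control was 0.944 in replicate 1, 1.28 in replicate 2 and 1.22 in replicate 3. The exact 95% counting intervals were 0.896 to 0.995, 1.21 to 1.36 and 1.16 to 1.29, so that replicates 2 and 3 were higher and replicate 1 slightly lower by more than counting error. On the normalized scale the ratio of replicate 1 became 1.01, with 1.26 and 1.22 in the others. All 3 pairs were then above 1, as for 16.1% of all 336 miRNAs. MiR-221-3p had ratios of 1.06, 1.03 and 1.01 from RPM and of 1.14, 1.01 and 1.01 from normalized RPM, again all above 1 but close to it in replicates 2 and 3. For either miRNA, an exact sign-flip test of the mean paired log2 difference of normalized levels gave P = 0.25. This is the smallest value that 3 pairs can give. MiR-221-5p had ratios of 0.970, 0.902 and 0.943 from RPM, all below 1, but replicate 1 rose above 1 after normalization, to 1.04. The ratios of miR-222-5p, 1.10, 0.578 and 1.34, had counting intervals that all included 1.

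**Figure D3:**
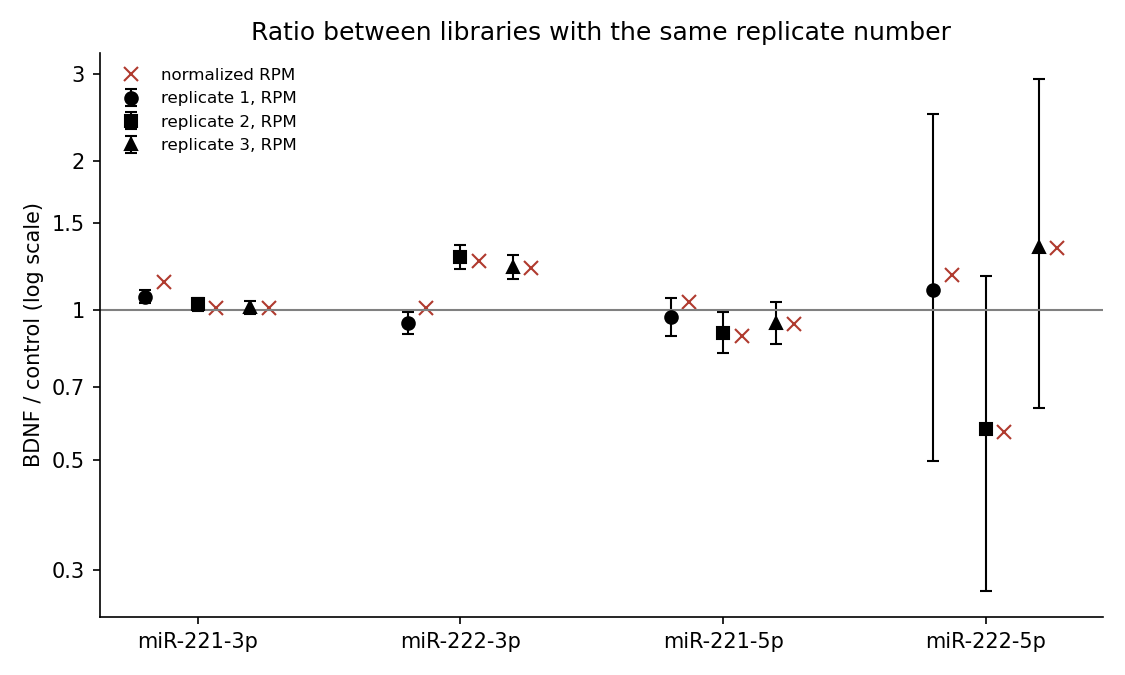
Ratio of BDNF to control on a log scale for libraries with the same replicate number; black symbols are RPM ratios with exact 95% counting intervals and red crosses the ratios after TMM normalization. MiR-222-3p is at 1.28 and 1.22 in replicates 2 and 3 and at 0.944 in replicate 1, while the miR-222-5p intervals span a wide range around 1.

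The balance of the seed-sharing miRNAs within a library needs no normalization, since both counts come from the same library. Control libraries had 2.81, 3.89 and 3.84 miR-221-3p reads for each miR-222-3p read, and BDNF libraries had 3.17, 3.12 and 3.18. The BDNF libraries thus lay close together, at 3.16 ± 0.03 (SD, n = 3), and the controls lay on either side of them, at 3.51 ± 0.61 (SD, n = 3). The counting interval of control 1, from 2.69 to 2.93, and those of controls 2 and 3, which spanned 3.65 to 4.08, left out every BDNF value. The difference in mean log2 ratio, BDNF minus control, was -0.14, within the spread of the controls, with P = 0.4 in an exact two-sided permutation test. Within replicate numbers, the log2 ratio changed by 0.17, -0.32 and -0.27 in replicates 1 to 3. The exact sign-flip test of the mean paired difference gave P = 0.5 and cannot give less than 0.25. Without control 1 the difference was -0.29, with P = 0.1 in the exact permutation test, the smallest value for 2 against 3 libraries. Whether the spread differed between conditions was not tested.

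**Figure D4:**
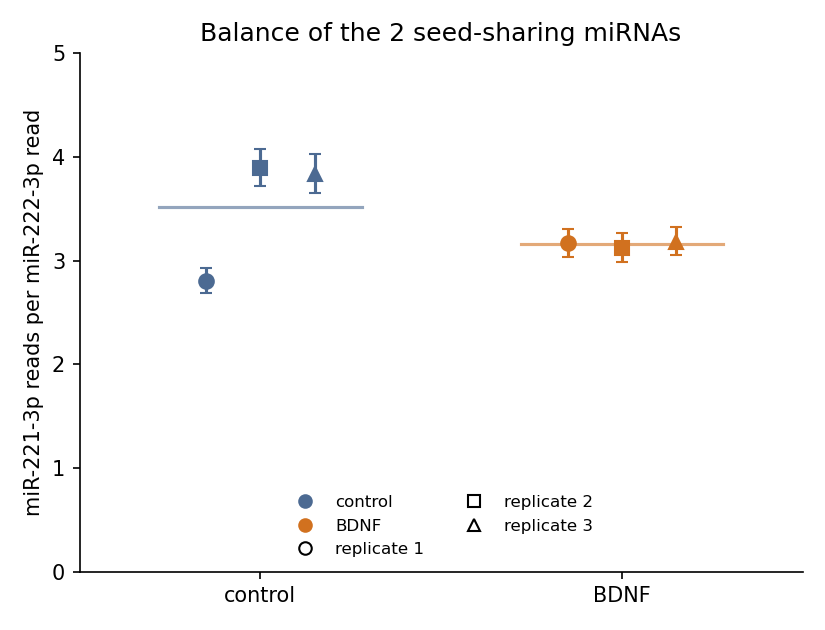
Number of miR-221-3p reads for each miR-222-3p read in the control and BDNF libraries, with exact 95% counting intervals and the group means as bars. The BDNF libraries lie between 3.12 and 3.18, below controls 2 and 3 and above control 1.

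The levels of both 3p miRNAs, whose annotated forms carry the same seed, were also summed. Each count includes variants with trimmed or extended ends (isomiRs), and reads trimmed at the 5′ end have another seed, so that the sum is one of reads assigned to the pair. It was 1013, 875 and 960 RPM in control replicates 1 to 3 and 1046, 945 and 1016 RPM in the BDNF replicates, so the groups overlapped. After normalization the sum was 942 ± 69 RPM in control (SD, n = 3) and 1013 ± 102 RPM in BDNF libraries (SD, n = 3). The mean log2 difference was 0.10, with P = 0.4 in an exact two-sided permutation test. The normalized ratios within replicate numbers were 1.11, 1.06 and 1.05.

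Strand choice was described by the share of 5p reads among all reads of a hairpin. For miR-221 the 5p share was 11.4, 9.99 and 8.87% in control replicates 1 to 3 and 10.5, 8.88 and 8.29% in the BDNF replicates. The Wilson 95% interval ran from 10.8 to 12.1% in control 1 and from 7.77 to 8.85% in BDNF 3, so that single libraries differed by more than counting error. The share was lower in the BDNF library of all 3 pairs, but the groups overlapped. How many other precursors showed this was not counted. For miR-222 the 5p share was far smaller, at 0.466, 1.10 and 0.627% in control and 0.542, 0.5004 and 0.687% in BDNF libraries. MiR-222 thus had 89.7 to 214 reads of the 3p arm for each 5p read, against 7.76 to 11.1 for miR-221, and the ranges of the hairpins did not overlap. As given above, ligation preferences also enter such ratios.

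The log2 5p/3p ratio was compared between conditions with limma. Control libraries had a miR-221 ratio of -3.16 ± 0.20 (SD, n = 3), as compared with -3.30 ± 0.19 (SD, n = 3) in BDNF libraries. The difference of -0.14 (standard error 0.17, 95% interval -0.53 to 0.24) had a limma P-value of 0.420 unadjusted and 0.956 adjusted over the 83 precursors whose arms both passed 10 RPM. An unadjusted P-value below 0.05 was found for 3.61% of these precursors, miR-221 not among them. With the replicate block the standard error was 0.10, with a limma P-value of 0.190 unadjusted and 0.567 adjusted. At the unadjusted threshold, 12% of the 83 precursors passed with the block. For miR-222, whose 5p arm was too rare for this fit, the value came from the 141 precursors with both arms at 1 RPM or more. Its control libraries had a log2 ratio of -7.13 ± 0.62 (SD, n = 3), as compared with -7.40 ± 0.23 (SD, n = 3) in BDNF libraries. The difference of -0.27 (standard error 0.38, 95% interval -1.13 to 0.60) had a limma P-value of 0.504 unadjusted and 0.971 adjusted, where 4.26% of the precursors had an unadjusted P-value below 0.05. Without control 2, which held the highest number of 5p reads (25), the difference was 0.071. In control libraries, 9 of the 141 precursors leaned further to the 3p arm than miR-222 and 36 further than miR-221, and the 3p arm prevailed in 64.

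**Figure D5:**
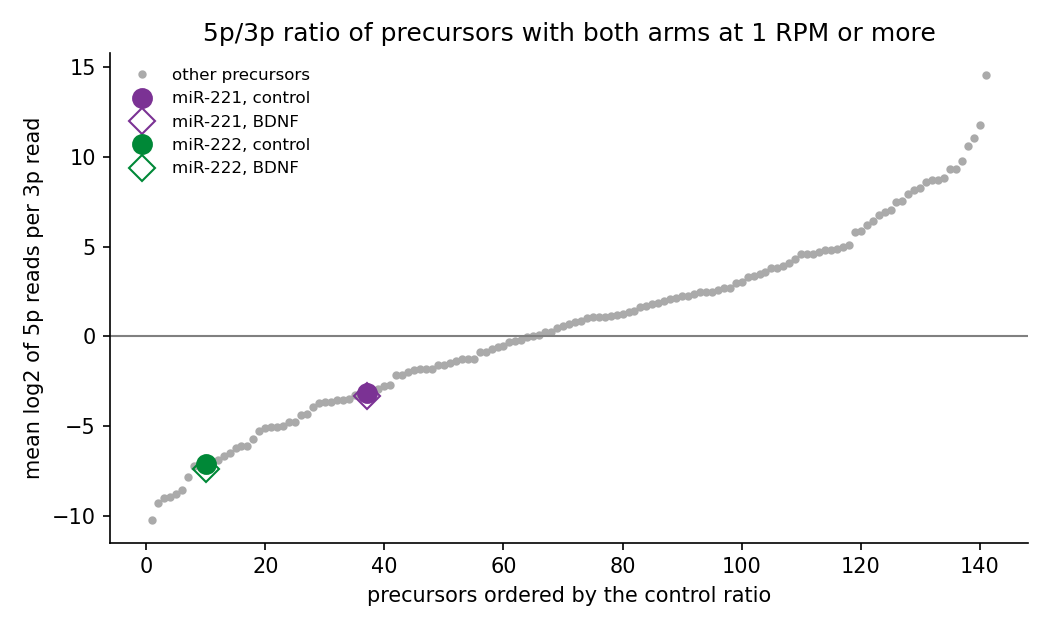
Mean log2 of 5p reads per 3p read for the 141 precursors with both arms at 1 RPM or more, ordered by the control mean (grey), with miR-221 in purple and miR-222 in green (filled circles control, open diamonds BDNF). Values below 0 mean more 3p than 5p reads; miR-221 lies at -3.16 in control and -3.30 in BDNF libraries, and miR-222 at -7.13 and -7.40.

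The miRNAs whose normalized levels moved most like those of a member over the 6 libraries were found by the root mean square difference of log2 levels after centring each miRNA on its mean. By this measure a miRNA with no change over the libraries would be at 0.094 from miR-221-3p, 0.22 from miR-222-3p and 0.24 from miR-221-5p. For miR-221-3p the nearest were miR-219a-1-3p (0.043), miR-370-5p (0.045) and miR-125a-3p (0.076), the last close to the distance of no change. For miR-222-3p they were miR-341 (0.063), miR-370-3p (0.069) and miR-300-3p (0.086), and for miR-221-5p they were miR-126a-3p (0.054), miR-152-3p (0.086) and miR-28-3p (0.087). Those nearest miR-221-3p had low normalized levels, at 23.2 to 30.1, 11.7 to 14.4 and 27.4 to 29.6 RPM, respectively. Counting error at such levels was not separated from shared movement. All were picked as the closest among the miRNAs past the minimum, and whether they were closer than by accident was not tested. The distance between miR-221-3p and miR-222-3p was 0.17, above that of no change for miR-221-3p and below it for miR-222-3p.

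Among the other miRNAs linked to BDNF, the transcription factor CREB or ERK, 9 of the 12 listed passed the minimum. None of the 9 had an unadjusted P-value below 0.05 in edgeR without the block, and their median log2 fold change was 0.06, against -0.002 over all 336. With the block, 2 of the 9 fell at the unadjusted threshold, where 12.8% of all miRNAs fell, and none rose, where 7.74% did. These were miR-132-3p and miR-212-3p, which share a transcript that CREB induces. The 5p arms of the same transcript had log2 fold changes of 0.024 (miR-132-5p, edgeR P-value 0.865 unadjusted) and 0.13 (miR-212-5p, edgeR P-value 0.126 unadjusted) with the block. MiR-132-3p had 604, 810 and 1825 RPM in control replicates 1 to 3 and 501, 732 and 1466 RPM in the BDNF replicates, so that replicate numbers differed more than conditions. Its log2 fold change with the block was -0.22, with an edgeR P-value of 0.0104 unadjusted and 0.166 adjusted. MiR-212-3p had 42.6, 67.3 and 154 RPM in control and 33.3, 50.9 and 135 RPM in BDNF libraries. With the block its log2 fold change was -0.29, with an edgeR P-value of 0.00851 unadjusted and 0.166 adjusted. Both were highest in replicate 3 in control and in BDNF libraries, whereas none of the 4 members was highest there in both. By RPM, miR-221-3p was highest in replicate 3 only among controls and miR-222-5p only among BDNF libraries.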

How the data were processed

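Per the methods, the authors trimmed the 3′ adapter, filtered reads by quality and length and assigned them to rat mature miRNAs of miRBase with Miraligner, which allows trimmed and extended ends, so that each count sums over isomiRs. The authors deposited raw read counts per mature miRNA, 1 library per file, without normalization. Tool versions and the treatment of reads matching several miRNAs are not given in the sources used here. Groups and replicate numbers came from the sample titles. RPM were computed from the sum of each file. Levels were tested with edgeR 4.0.16 (R 4.3.3), TMM factors from 0.928 to 1.08 and a minimum mean of 10 RPM in one condition. The log2 5p/3p ratios, with 0.5 added to each count, were tested with limma 3.58.1 and a variance trend on the rarer arm. DESeq2 1.42.0 was an alternative. The standard error of an edgeR change is its size divided by the root of the F statistic. Ratios of single values used exact permutation tests. Scripts were tested on simulated data. The exact and Wilson intervals cover counting error only. They treat reads as independent, although reads without molecular identifiers are not independent molecules. The edgeR and limma intervals come from the standard errors of the fits, which include variation between libraries.

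The methods call the samples biological replicates. No libraries of one condition agreed within sampling noise (chi-square per degree of freedom at least 220). For the replicate block, the numbers in the titles were taken as pairs because deviations from the group means correlated within each number, at 0.80, 0.48 and 0.89 over the 336 miRNAs tested. The members, lists and tests were chosen with earlier results of these data known. The named miRNAs are the members, any others with their seed, the 3 nearest in pattern to each member that passed the minimum and, of the listed BDNF-, CREB- or ERK-linked miRNAs, miR-132-3p, miR-212-3p and those past the threshold. The 5p arms of miR-132 and miR-212 and the cell type markers miR-138-5p, miR-126a-5p, miR-21-5p, miR-9a-5p, miR-153-3p and miR-486 were named after their values were seen.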

Additional observations from a re-analysis of the deposited data

How the results depend on the processing

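Without single libraries, the log2 fold change ranged from -0.011 to 0.13 for miR-221-3p, from 0.11 to 0.42 for miR-222-3p, from -0.27 to 0.10 for miR-221-5p and from -0.25 to 0.23 for miR-222-5p. The log2 5p/3p difference ranged from -0.25 to -0.039 for miR-221 and from -0.54 to 0.071 for miR-222, and the log2 difference of the miR-221-3p to miR-222-3p ratio from -0.29 to -0.056. The number of miRNAs with an unadjusted P-value below 0.05 ranged from 3 to 32, with 32 without control 1, 3 without control 2, 6 without control 3 and 5 without BDNF 2. It was 6 with library size only, 6 with limma-trend and 69 with the replicate block, under which miR-222-3p passed with a log2 fold change of 0.21, and the block changed no other call of a member. The adjusted threshold of 0.05 was passed by 0 miRNAs under each of these alternatives, and other normalizations, filters, tools and pseudocounts turned no direction. The cause of these shifts was not tested. With a minimum of 10 RPM the miR-222 ratio has no value. The counts of 13 to 25 reads limit every statement on miR-222-5p.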
